A study of Mus musculus with 8 samples.

Results

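The lymphatic endothelial cells described here line the vessels that drain fluid, lipid and immune cells from the mucosa of the mouse distal colon. They are the 370 cells that the authors placed in their class Lymphatics, of 53080 cells in all (0.697%, 95% Wilson interval 0.630 to 0.771, counting error only), and none of them carried a doublet name. The 8 mice, numbered 1 to 8, gave 8, 24, 26, 55, 60, 62, 107 and 28 of these cells. All 370 lay in 1 cluster of the authors, number 22, which held 0 cells of other classes.

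The study sequenced the 3′ ends of transcripts from single cells of the colonic mucosa of 8 mice aged 8 weeks, comparing mice with and without a deletion of Sprouty2 (Spry2), an inhibitor of receptor tyrosine kinase signalling, in the intestinal epithelium. The 4 KO-labelled mice (2, 3, 6 and 7) carried a floxed Spry2 gene and a Villin-Cre transgene, whose promoter drives Cre in gut epithelium and is not known to be active in endothelium. The 4 WT-labelled mice (1, 4, 5 and 8) were littermates with the floxed gene and no Cre, so both groups share the floxed allele. The strain background is not given in the sources used here, and the myenteric layers had been stripped by hand before digestion.

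Lymphatic endothelial cells hold their identity through the transcription factor Prox1, and without it they take on features of blood endothelium. They grow in response to the factors Vegfc and Vegfd through the receptor Flt4 (VEGFR3), and they secrete the chemokine Ccl21, which guides dendritic cells and T cells into the vessel through the receptor Ccr7. In the gut these vessels also take up absorbed lipid and lie close to the crypt base.

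Lymphatic cells held 1226013 UMIs in all (unique molecular identifiers, each counting 1 captured transcript), from 508 to 28806 per cell with a median of 2620. The sums per mouse ranged from 21352 UMIs in mouse 1 to 317470 in mouse 7, and the libraries held 3302 to 10101 cells of all classes. Blood endothelial cells, the authors' class Endothelium, numbered 265 (median 2173 UMIs), fibroblasts 6262 and myofibroblasts 180. Of all cells, 719 shared a barcode with a cell of another mouse, 7 of them lymphatic. Levels are CPM (UMIs per 1000000 UMIs in the sum of a class in a mouse). A gene with 0 UMIs in all lymphatic cells can be present at up to 2.45 CPM, the value of 3 UMIs. Spry2 held 0, 0, 0, 16.5, 4.42, 12.4, 12.6 and 30 CPM in the lymphatic sums of mice 1 to 8. Villin-Cre is not known to act in these cells, and the floxed stretch of the gene is not given here, so these counts check no label. Every direction below rests on the labels.

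The cells carried the markers of their label. Of the 4 genes Lyve1, Prox1, Mmrn1 and Ccl21a, 261 cells had a UMI of every one, 93 cells of 3, 5 cells of 2, 1 cell of 1, and 10 cells of none. At least 2 of the 4 were found in 97.0% of lymphatic cells (94.8 to 98.3, Wilson, counting error only), in 0.377% of blood endothelial cells (1 cell) and in 0.0958% of fibroblasts. Lyve1 was detected in 96.8% of lymphatic cells and in 0.0736% of T cells, which should lack it and had a median of 2404 UMIs. Mmrn1 was detected in 95.7 and 0.0736%, Ccl21a in 96.5 and 0.294%, and Prox1 in 71.6 and 0.0552%. Thinned to 1000 UMIs per cell, which left out 30 lymphatic and 1056 T cells, Prox1 was seen in 45.6% of lymphatic and 0.0457% of T cells. The genes of other cell types were at low levels with exceptions. The macrophage list (8 genes) summed to 0 to 88.2 CPM per mouse. Of its genes 2, C1qa and Adgre1, were at 0 in every mouse, while 5 were detected in mouse 7. A list of 6 dividing-cell genes summed to 58.7 CPM over all lymphatic cells. Of these only 1, Mki67, was at 0, and 4 were detected in mouse 7. Epithelial, B cell, smooth muscle and fibroblast genes were present in some cells, described further on. The fibroblast list summed to 4824 CPM in mouse 1, which had 8 cells, and to 30 to 561 CPM in the others.

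Because the authors' classes were made from these same genes, lymphatic and blood endothelium are set side by side as a description, without a test. Ratios are means over mice 3 to 8, which had at least 20 cells of both classes, of log2((CPM + 10) in lymphatic over blood endothelium), with the SD over the 6 mice. The added 10 CPM shrinks ratios of low genes. Among 4118 genes with at least 50 CPM in either class the median ratio was 0.07. Of these, 4.03% were over 2-fold higher in lymphatic cells in every one of the 6 mice, and 4.76% were at under 0.5 of the blood endothelial level in every mouse. Higher in every mouse by any amount were 16.8%, and lower 15.8%. These shares stand beside the list counts that follow, but they leave out genes below 50 CPM in both classes. That level was reached by 21 of 24 identity, 14 of 24 growth signalling, 12 of 24 leukocyte trafficking and 5 of 18 niche genes. It was also reached by 14 of 17 junction, 11 of 15 lipid handling and 18 of 19 matrix genes. No such share was computed over all genes. A gene that reached 50 CPM through 1 class alone had to differ, so the counts and medians of lists are given over all listed genes, low ones included.

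Of 24 transcription factors, receptors and surface genes listed for lymphatic identity, 15 were over 2-fold higher in every mouse and 0 were under 0.5, with a median ratio of 3.66. Prox1 (chromosome 1, 190118035 to 190170714, minus strand; positions here are from GENCODE M21 on GRCm38) measured 804, 661, 671, 663, 678, 535 and 555 CPM in lymphatic sums of mice 2 to 8. In blood endothelium of mice 3 to 8 it was at 0, 0, 29.3, 0, 5.36 and 0 CPM, so that the classes did not overlap (log2 ratio 5.55 ± 0.80, SD, n = 6). Lyve1, a receptor for hyaluronan (chromosome 7, 110850607 to 110863239, minus strand), measured 4113, 4760, 4008, 4956, 4471, 4372 and 3570 CPM in lymphatic sums of mice 2 to 8. In blood endothelium it did not pass 80.7 CPM (ratio 7.87 ± 1.17). Mmrn1, an extracellular glycoprotein of the multimerin family (chromosome 6, 60924976 to 60989378, plus strand), measured 3870, 4601, 3997, 4686, 3822, 3446 and 3420 CPM in the same mice. Both genes varied little between mice, and both were at 0 CPM in the blood endothelium of at least 3 of 6 mice.

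Other identity genes were separate to differing degrees. The transcription factor Maf had 649 to 1174 CPM in mice 2 to 8 and at most 40.3 in blood endothelium (5.63 ± 1.06), and Nr2f2, which acts upstream of Prox1, 520 to 840 CPM (3.31 ± 1.46). Tbx1, another transcription factor, had 99.2 to 198 CPM and 0 UMIs in the blood endothelium of all 6 mice. Pdpn, a ligand of the platelet receptor CLEC-2, had 243 to 397 CPM (4.50 ± 1.14). It was also found in fibroblasts, at 187 CPM over all mice, and the log2 ratio of lymphatic cells to them was 0.58 ± 0.37 (7 mice). Thy1, better known from T cells and fibroblasts, held 467 to 716 CPM in lymphatic sums, 213.6 in T cells and 89.1 in fibroblasts. Sox18, which switches on Prox1 in the embryo, was at 49.5 to 255 CPM and did not separate the classes (0.06 ± 0.85).

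The 20 genes with the highest ratios to blood endothelium, by a rule without regard to function, were Ccl21a, Mmrn1, Lyve1, Reln, Igfbp5, Fgl2, Lcn2, Maf, Prox1, Pard6g, Ntn1, Dtx1, Cyp4b1, Cp, Gpm6a, Thy1, Fxyd6, Sema3d, Prelp and Abi3bp. Reln, a large secreted glycoprotein, held 926 to 1494 CPM in mice 2 to 8 and 0 CPM in blood endothelium except 3.67 in mouse 5 (6.80 ± 0.31). Igfbp5, which binds insulin-like growth factors, held 2340 to 5103 CPM (6.49 ± 1.70), and fibroblasts also had it, at 826 CPM. Lcn2, an iron-scavenging protein of innate defence, held 551 to 1260 CPM in mice 2 to 8 and was at 0 CPM in blood endothelium except 7.33 in mouse 5. Its level was 0.384 CPM in the epithelial class. The 32 neutrophils held 975 CPM of it, above the 739 CPM of lymphatic cells over all mice. Dtx1, a regulator of Notch signalling, held 289 to 516 CPM and had 0 UMIs in blood endothelium, with 68.9 CPM in T cells. Every one of these genes lay higher in lymphatic than in blood endothelial sums of the same mouse. They were picked by this ratio in the same mice, so that adds no support.

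The genes whose levels followed Prox1 most closely, by Pearson correlation of log2(CPM + 10) over 55 sums of a class in a mouse, were Mmrn1 (r = 0.996), Pkhd1l1, Ccl21a, Lcn2 and Megf6 (0.991 each), Tbx1 (0.984), Apba2 (0.981), Nrcam (0.980), Gm21541 (0.979) and Wipf3 (0.978). These sums share libraries, and the lymphatic ones stand apart from all others, so the values describe which genes are high in the same class. Only sums of 20 or more cells entered. Neutrophils, with at most 10 cells in a mouse, gave none, so their Lcn2 is not reflected in its r.

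Ccl21a (ENSMUSG00000094686, chromosome 4, 42772860 to 42773993, minus strand), the Ccr7 ligand, measured 20982, 17278, 24195, 16498, 19041, 24293, 23202 and 22818 CPM in lymphatic sums of mice 1 to 8. In the blood endothelium of mice 3 to 8 it was at 0, 0, 117, 9.52, 0 and 0 CPM (10.30 ± 1.55). Lymphatic cells held 25990 of the 27089 Ccl21a UMIs of the data set, and the 42 glial cells had 935 CPM of it, 1 of them with 2 or more lymphatic markers. The mouse genome carries near-identical copies of this gene on chromosome 4, so its count is uncertain as to the copy. In the annotated transcripts, Gm21541 (41903610 to 41904743, plus strand) differed from Ccl21a at 2 of 402 coding bases (99.5% identity), T84A and C194T, counted from 1 at the first coding base, with the Ccl21a base first. The copies Ccl21b, Gm13304 and Gm10591 differed by the same substitutions. Coding bases 54 to 114 and 164 to 224 are shown, 5′ to 3′, with the base that differs in capitals, because these are the only coding differences.
Ccl21a, bases 54 to 114: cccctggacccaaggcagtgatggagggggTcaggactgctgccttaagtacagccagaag
Gm21541, bases 54 to 114: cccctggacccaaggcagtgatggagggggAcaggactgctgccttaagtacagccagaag
Ccl21a, bases 164 to 224: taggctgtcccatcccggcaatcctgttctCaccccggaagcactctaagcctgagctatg
Gm21541, bases 164 to 224: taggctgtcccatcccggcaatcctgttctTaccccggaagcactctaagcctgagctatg
The whole transcripts of 870 bases differed at 6 positions, 1 before, 2 within and 3 after the coding part, and 3′ reads see only the last part. The file assigned 124 UMIs to Gm21541, 123 of them in lymphatic cells, 4 to Ccl21c and 1 to Gm13304, and 0 to the rows named Ccl21b.

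**Figure D1:**
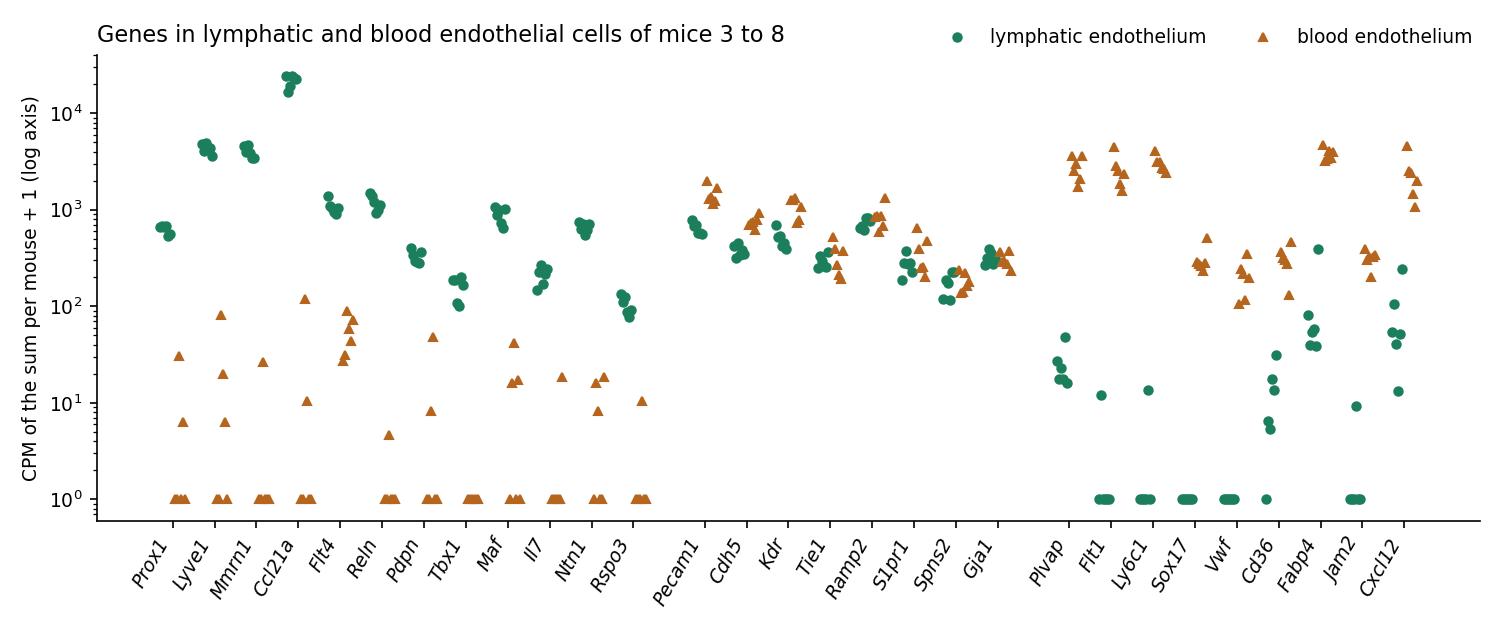
CPM of the summed cells of a mouse plus 1, on a log axis, for 29 genes in lymphatic endothelium (circles) and blood endothelium (triangles) of mice 3 to 8; each point is a mouse. Genes of lymphatic identity stand to the left, genes present in both classes in the middle and genes of blood endothelium to the right, where Sox17 and Vwf have 0 UMIs in every lymphatic sum.

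Receptors for growth signals were split. Flt4, the receptor of Vegfc and Vegfd, held 898 to 1388 CPM in mice 2 to 8 and 26.0, 30, 88.0, 57.1, 42.9 and 70.6 CPM in the blood endothelium of mice 3 to 8 (4.19 ± 0.70). Nrp2, its co-receptor, was higher in lymphatic cells by 1.35 ± 0.51, and the related Nrp1 was at 0 CPM in 6 of 8 lymphatic sums, with 46.8 in mouse 1 and 26.4 in mouse 3, beside 402 to 1039 CPM in blood endothelium. Kdr, the receptor of Vegfa, was lower in lymphatic cells in every mouse (390 to 701 beside 724 to 1313 CPM, −1.05 ± 0.29). The ligands themselves were scarce in lymphatic cells: Vegfc was at 0 in 5 of 8 sums and Vegfd at 0 in 4. Fibroblasts held 24.6 CPM of Vegfc and 57.6 of Vegfd. Of the 24 growth signalling genes, 2 were over 2-fold higher in every mouse and 0 under 0.5, with a median ratio of 0.067. The adrenomedullin receptor pair Calcrl and Ramp2 (0.34 ± 0.60 and −0.19 ± 0.38) and Tie1 (−0.08 ± 0.51), a receptor of the angiopoietin system, were within the spread between mice.

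Genes that steer leukocytes gave a mixed picture, with 3 of 24 listed genes over 2-fold higher and 1 under 0.5 in every mouse. Il7, a survival factor for T cells and innate lymphoid cells, held 95.2 to 269 CPM in lymphatic sums of mice 2 to 8 and 0 UMIs in the blood endothelium of all mice but mouse 8, which had 17.6 CPM (4.19 ± 0.58). Fibroblasts held 11.5 CPM of it. Ackr2, which scavenges inflammatory chemokines, held 153 to 209 CPM (3.69 ± 1.36), and Mrc1, the mannose receptor, 59.9 to 185 CPM with 0 UMIs in blood endothelium. Icam1, an adhesion molecule for leukocytes, was higher in every mouse (1.06 ± 0.47). The sphingosine-1-phosphate exporter Spns2 (−0.04 ± 0.66) and the receptor S1pr1 (−0.35 ± 0.92) were present in both classes. Cxcl12 ran the other way, with 12.4 to 240 CPM in lymphatic and 1061 to 4573 CPM in blood endothelium (−4.90 ± 1.25). Ackr1, the chemokine transporter of venules, had 0 UMIs in 370 lymphatic cells, which allows a share of cells with a UMI of up to 0.811%.

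Of 18 secreted guidance and niche factors listed, 5 were over 2-fold higher in lymphatic than in blood endothelium in every mouse and 0 were under 0.5, with a median ratio of 0.49. The other 13 were below 50 CPM in both classes. The 5 were Ntn1, Sema3d, Sema3a, Rspo3 and Reln, which is also counted among identity genes. Ntn1, a guidance protein, held 545 to 740 CPM in mice 2 to 8 beside 147 CPM in fibroblasts and at most 17.6 in blood endothelium (5.46 ± 0.65). Sema3d held 227 to 449 CPM (4.78 ± 0.56) and Sema3a 52.9 to 161 CPM (3.37 ± 0.43), both repulsive guidance cues. Rspo3, which strengthens Wnt signalling in crypt stem cells, held 74.0, 132, 110, 124, 86.8, 75.6 and 90.0 CPM in mice 2 to 8 and was at 0 in the blood endothelium of 5 of 6 mice, with 9.52 CPM in mouse 6. Its level was 20.6 CPM in fibroblasts and 120.5 CPM in myofibroblasts. The lymphatic levels lay above that of fibroblasts in every mouse and on both sides of that of myofibroblasts. The Wnt ligands Wnt2 and Wnt5a were below 30 CPM in mice 2 to 8, beside 70.3 and 70.7 CPM in fibroblasts.

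Junction genes differed by gene. Cldn5, the endothelial claudin, held 897 to 1534 CPM in mice 2 to 8 and 0 to 547 CPM in blood endothelium (2.99 ± 2.11). Pecam1 (−1.14 ± 0.26) and the cadherin Cdh5 (−0.98 ± 0.27) were lower in lymphatic cells in every mouse. Esam was lower by 4.60 ± 0.70 on the log2 scale, and Jam2 had 0 CPM in 7 of 8 lymphatic sums beside 200 to 390 CPM in blood endothelium. Of 17 junction genes, 0 were over 2-fold higher and 3 under 0.5 in every mouse. Genes of valves and collecting vessels differed too. Of 8 markers listed for these vessels, 4 were over 2-fold higher in every mouse and 0 under 0.5 (median 2.40). Among them Fgl2, a secreted fibrinogen-like protein, held 2145 to 3955 CPM in mice 2 to 8 (6.45 ± 1.22), and Lbp, which binds lipopolysaccharide, 278 to 419 CPM (4.55 ± 0.71). Fgl2 was also found in glia (1118 CPM) and neutrophils (975 CPM). The transcription factor Gata2 (−1.26 ± 0.81) and the gap junction gene Gja4 (−1.64 ± 0.89) were lower in every mouse. Foxc2, the valve transcription factor, held 0 to 92.5 CPM and was detected in 10.5% of cells, and Cldn11 in 2.43%. Itga9, an integrin of valve leaflets, held 74.0 to 225 CPM in mice 2 to 8. Of 6 capillary markers, Lyve1, Ccl21a and Reln were over 2-fold higher in every mouse, and Cd36 was under 0.5 in every mouse (−3.94 ± 0.92). The mechanosensitive channel Piezo2 held 151 to 285 CPM in mice 2 to 8 (2.42 ± 1.46), and Ptx3 was at 0 CPM in 5 of 8 lymphatic sums. Of a wider list of 17 valve and collecting vessel genes, 2 were over 2-fold higher and 1 under 0.5 in every mouse (median −0.26).

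Of 15 lipid handling genes, 0 were over 2-fold higher and 5 under 0.5 in every mouse (median −0.38). Cd36, a fatty acid transporter, held 0 to 30 CPM in lymphatic sums and 129 to 459 CPM in blood endothelium (−3.94 ± 0.92). Fabp4, a fatty acid binding protein, held 0 to 390 CPM beside 3181 to 4677 CPM (−5.48 ± 1.08), and the lipoprotein receptor Scarb1 was at 0 in 6 of 8 lymphatic sums. Gpihbp1, which anchors lipoprotein lipase to capillaries, was present in both (252 to 615 and 130 to 495 CPM, 0.45 ± 1.09).

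The 10 lowest ratios belonged to Ly6c1, Flt1, Ly6a, Plvap, Rgcc, Nrp1, Fabp4, Sparc, Pltp and Col15a1. Plvap, which forms the diaphragms of fenestrated capillaries, held 0 to 47.2 CPM in lymphatic sums of mice 2 to 8 and 1714 to 3611 CPM in blood endothelium (−6.35 ± 0.68). Flt1, a Vegfa receptor, was at 0 CPM in 7 of 8 lymphatic sums beside 1554 to 4417 CPM. Vwf, Sox17 and Esm1 had 0 UMIs in lymphatic cells of every mouse. Of 18 blood endothelial markers, 8 were under 0.5 in every mouse and 0 over 2-fold higher. Aqp1 and Gpihbp1 from that list were present in lymphatic cells, Aqp1 at 533 to 945 CPM in mice 2 to 8. Extracellular matrix genes divided, with 3 of 19 over 2-fold higher and 6 under 0.5. Timp3, a protease inhibitor, was higher (1.73 ± 0.56), while the basement membrane chain Col4a1 (−0.80 ± 0.38) and Sparc (−5.40 ± 1.15) were lower. None of the genes of the Sprouty and ERK feedback, immediate early and interferon lists (13, 15 and 10 genes) was past 2-fold in the same direction in every mouse.

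The 370 cells were not uniform. Clustering them anew gave 5 sets, given here by their leading genes and without names, since the sets were made from the genes that describe them. Set 1 (135 cells, median 3459 UMIs) and set 2 (174 cells, median 2037.5) both carried the lymphatic list at 34579 and 40039 summed CPM. The 9 leading genes of set 1 were, in order, Icam1, Sbno2, Atf3, Nfkbiz, Sparc, Cxcl1, Gsn, Egr1 and Zfp36. Atf3, Egr1 and Zfp36 are immediate early genes, while Sparc, a matrix protein, was found in 10.4% of its cells and Gsn in 19.3%. The fibroblast list summed to 551 CPM in set 1, with 8 of 8 genes detected, and to 33.6 CPM in set 2. The 15 immediate early genes summed to 33793 CPM in set 1 and 11694 CPM in set 2. The sizes by mouse were 4, 10, 8, 16, 25, 23, 46 and 3 cells in set 1 and 4, 7, 12, 24, 25, 31, 50 and 21 cells in set 2. Set 1 was smaller than set 2 in 5 of 8 mice, and smallest beside it in mouse 8.

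The remaining 61 cells fell into 3 smaller sets. Set 3 (38 cells, median 7.96% mitochondrial UMIs beside 3.56% over all lymphatic cells) was led by the goblet cell genes Zg16 and Tff3 with Spink1 and Fcgbp. Zg16 and Tff3 were each found in 23.7% of its cells and Fcgbp in 10.5%, while Phgr1 and Krt8 were found in 60.5%, so that its leading genes came from a part of the cells. Its epithelial list summed to 3514 CPM and its lymphatic list to 21873 CPM. Set 5 (13 cells) was led by Ighm, Iglc2 and Cd79a, with 3118 CPM of B and plasma cell genes and 22068 CPM of the lymphatic list. Set 4 (10 cells) had 0 UMIs of Prox1, Lyve1, Mmrn1, Ccl21a and of all 12 pan-endothelial genes. Its leading genes included Rgs5, Acta2, Sfrp4, Ano1 and Hand1, and 6 of 8 smooth muscle and pericyte genes summed to 3588 CPM. The expression of set 4 goes against its label. These cells came from 6 mice, 1 to 3 cells each, and are kept in the sums below unless stated. At resolution 0.3 the cells fell into 4 clusters and at 1.0 into 7, and set 4 stayed whole in both. The borders of sets 1, 2 and 3 moved. At 0.3, 1 cluster held 134 cells of set 1, 53 of set 2 and 34 of the 38 of set 3. At 1.0, 37 cells of set 3 stayed in 1 cluster, while sets 1 and 2 were each split. Values given below for sets 1 and 2 therefore rest on resolution 0.5.

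**Figure D2:**
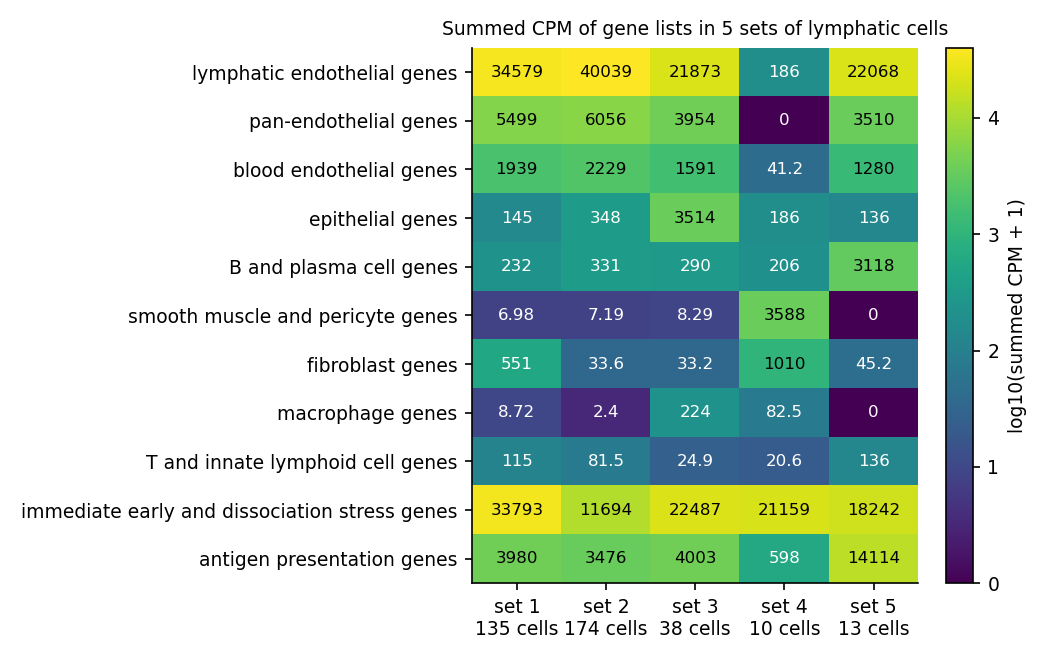
Summed CPM of 11 gene lists (rows) in the 5 sets of lymphatic cells (columns), written in each field; colour gives log10 of the summed CPM plus 1. The lymphatic list stands at 21873 CPM or more in sets 1, 2, 3 and 5 and at 186 CPM in set 4, where the pan-endothelial list is 0.

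The share of lymphatic cells varied between mice more than between the groups. Of all cells they made up 0.331, 0.352, 1.01 and 1.96% in KO-labelled mice 2, 3, 6 and 7 and 0.116, 0.545, 0.914 and 0.848% in WT-labelled mice 1, 4, 5 and 8. The groups overlapped (0.914 ± 0.767 and 0.606 ± 0.364%, SD, n = 4 each, two-sided exact permutation p = 0.571). Of stromal cells they made up 2.90, 2.23, 6.26 and 7.97% in KO-labelled and 1.94, 5.97, 4.97 and 11.2% in WT-labelled mice (4.84 ± 2.73 and 6.01 ± 3.83%, exact permutation p = 0.686). Of lymphatic plus blood endothelial cells they made up 64.9, 56.5, 67.4 and 60.5% beside 61.5, 67.1, 45.5 and 50% (62.3 ± 4.81 and 56.0 ± 10.0%, exact permutation p = 0.343). The 3 p-values adjusted over the family were 0.686 each by the exact permutation test, whose smallest p over 70 assignments is 0.0286. The share of all cells was lower in the KO-labelled mice by 0.0414 percentage points without mouse 7, and the share of stromal cells was higher by 0.546 points without mouse 8. Median UMIs per lymphatic cell (2654 ± 480 and 2695 ± 597, n = 4 each) and median mitochondrial percentages (3.82 ± 0.660 and 3.73 ± 0.711) differed by less than their spread (exact permutation p = 0.943 and 0.886).

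**Figure D3:**
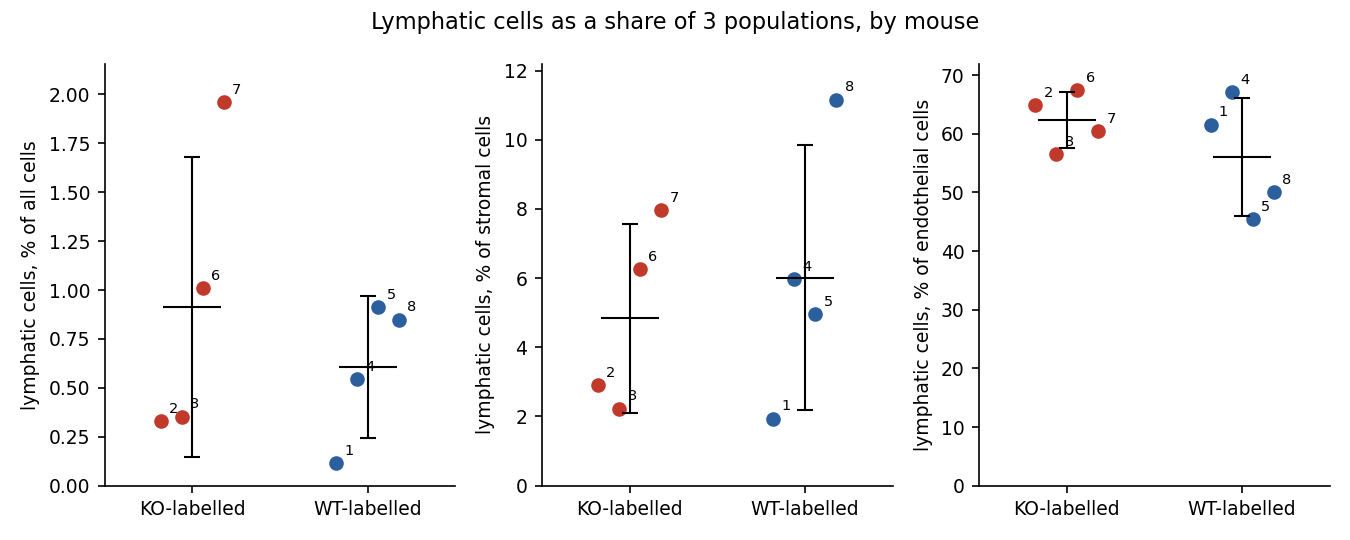
Lymphatic cells as a percentage of all cells, of stromal cells and of lymphatic plus blood endothelial cells; each point is a mouse with its number, lines give the mean and bars the SD of 4 mice per group. KO-labelled and WT-labelled mice overlap in all 3 panels.

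Whether lymphatic transcripts differ with the epithelial genotype was tested on sums per mouse. The 4 KO-labelled mice were set against WT-labelled mice 4, 5 and 8, and mouse 1, with 8 cells, was left out. Of 3425 genes tested with edgeR's quasi-likelihood test and Benjamini-Hochberg adjustment, 5 passed 0.05 (0.146%), 1 higher (0.0292%) and 4 lower (0.117%) in KO-labelled mice, and 138 had an unadjusted p under 0.05 (4.03%). DESeq2 called 2 (0.0584%), Nts and Phgr1. Genes with all KO-labelled mice above all WT-labelled mice made up 2.16% and those below 3.36%. The p-values measure the spread between these mice.

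None of the genes that define the class passed the test. Prox1 measured 804, 661, 678 and 535 CPM in KO-labelled and 671, 663 and 555 in WT-labelled mice, with overlapping groups (log2 fold change 0.07 ± 0.21, SE). Lyve1 (0.09 ± 0.20), Mmrn1 (−0.03 ± 0.20), Ccl21a (0.21 ± 0.22), Flt4 (0.08 ± 0.21), Reln (−0.07 ± 0.21), Pdpn (−0.13 ± 0.22) and Nrp2 (0.01 ± 0.21) did not pass (edgeR's quasi-likelihood test with Benjamini-Hochberg adjustment, adjusted p = 0.9997 each). The signs of Prox1, Lyve1, Mmrn1, Flt4 and Reln turned when 1 mouse was left out. Of 20 identity genes tested 10 were higher, 10 lower and 0 passed (median −0.01, beside −0.001 over all 3425 genes), and 1 of them did not overlap between the groups.

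No member of the other lists passed either. Of the growth signalling genes 7 of 14 were higher and 7 lower (median −0.04), of the trafficking genes 4 of 11 higher (−0.14), of the junction genes 4 of 10 higher (−0.01) and of the 5 niche factors 1 higher and 4 lower (−0.07). Extracellular matrix genes were lower in 12 of 15 (median −0.15), antigen presentation genes in 7 of 9 (−0.28), and 0 of each had an unadjusted p under 0.05. Over all genes 49.8% were higher. Il7 had the smallest p of its list, with 95.2, 145, 169 and 214 CPM in KO-labelled and 225, 269 and 240 CPM in WT-labelled mice. The groups did not overlap, and the change of −0.54 ± 0.25 did not pass (edgeR's quasi-likelihood test with Benjamini-Hochberg adjustment, adjusted p = 0.9997). Among 6 Sprouty and ERK feedback genes tested, 4 were higher and 2 lower (median 0.22), with Spry1, the relative of Spry2, at −0.25 ± 0.33 and the ERK phosphatase Dusp6 at 0.23 ± 0.34.

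Immediate early genes leaned upward, with 11 of 15 higher in KO-labelled mice, 0 passing and a median of 0.27. Zfp36, which speeds the decay of inflammatory mRNAs, measured 1427, 793, 893 and 1137 CPM in KO-labelled and 649, 738 and 585 CPM in WT-labelled mice, without overlap (0.70 ± 0.23, edgeR's quasi-likelihood test with Benjamini-Hochberg adjustment, adjusted p = 0.9997). Junb (0.57 ± 0.21) and Socs3 (0.57 ± 0.23) also had an unadjusted p under 0.05. The immediate early list summed to 33793, 11694, 22487, 21159 and 18242 CPM in sets 1 to 5, highest in set 1. Set 1 held 3 of 28 cells in WT-labelled mouse 8 and 29.1 and 41.7% of cells in mice 4 and 5, beside 30.8 to 43.0% in KO-labelled mice. The part of set sizes in these values was not tested.

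The other genes with the smallest p among those higher in KO-labelled mice were Sparcl1, Map1b, Tpm2, Sat1, Adamts1, Lgals1, Gsn and Ppp1r15a, none of which passed. Gsn was higher by 1.51 ± 0.51 and turned to −0.45 with mouse 1 included. The cell with the most Gsn held 45 of 45 UMIs in mouse 1, 15 of 23 in mouse 2 and 28 of 64 in mouse 7. In the other mice it held at most 4. Fibroblasts held 9989 to 18276 CPM of Gsn, and the part of their RNA was not tested. Among genes lower in KO-labelled mice, Spink4 (−2.49 ± 0.62), Epcam, Ifi27l2a, Gpx3, Lgals4 and Cd55 did not pass. Sparcl1 measured 116, 92.5, 90.9 and 31.5 CPM beside 0, 22.1 and 0, and Tpm2 159, 92.5, 90.9 and 15.7 beside 5.50, 22.1 and 0. In KO-labelled mice the cell with the most Sparcl1 held 11 of 11, 7 of 7, 9 of 22 and 3 of 10 UMIs. For Tpm2 it held 14 of 15, 7 of 7, 8 of 22 and 4 of 5. In WT-labelled mouse 5 it held 4 of 5 and 5 of 5. Sparcl1 and Tpm2 are both among the leading genes of set 4, the cells without endothelial genes. In sets 1 and 2 alone, Sparcl1 measured 0, 0, 0 and 15.2 CPM beside 0, 6.03 and 0. Tpm2 measured 14.95, 0, 4.74 and 3.8 CPM there beside 0 in each WT-labelled mouse. Leaving out set 4 lowers both by construction. The smooth muscle and pericyte list (6 of its 8 genes at most in a mouse) summed to 434, 145, 302 and 69.3 CPM in KO-labelled and 82.5, 88.3 and 0 CPM in WT-labelled mice, and its part in these values was not tested.

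Nts passed the test as higher in KO-labelled mice. It encodes neurotensin, a peptide hormone that is best known from enteroendocrine cells and neurons and acts on smooth muscle, secretion and lipid absorption. Its gene (ENSMUSG00000019890) spans bases 102481756 to 102490486 of chromosome 10, minus strand. In this data set 328 of 359 Nts UMIs (91.4%) were in lymphatic cells. They lay in 60 of these 370 cells (16.2%, Wilson interval 12.8 to 20.3, counting error over pooled cells only). The share per mouse ran from 0% in mouse 1 to 32.3% in mouse 6. Epithelial cells held 2 UMIs and T cells 0 in 5434 cells, which allows a share of up to 0.0552%. Blood endothelium held 21 UMIs in 2 cells. Of these, 20 were in 1 cell of mouse 6, which had 31300 UMIs with 2 of Lyve1 and 0 of Prox1, Mmrn1 and Ccl21a.

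The 182 bases upstream of the annotated Nts transcript are shown because they lie next to the 1 gene that was higher. They are chr10:102490487-102490668 on GRCm38.p6, read on the minus strand from the RefSeq promoter table, up to the GENCODE start, which lies 68 bases upstream of the RefSeq start. Capitals mark the letters TGAGTCA, the binding motif of AP-1 (Fos and Jun), at bases 44 to 50.
Nts promoter: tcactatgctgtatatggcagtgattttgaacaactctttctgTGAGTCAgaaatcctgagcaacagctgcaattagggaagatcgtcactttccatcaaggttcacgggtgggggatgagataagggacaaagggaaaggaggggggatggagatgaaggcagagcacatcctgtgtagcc
The motif, searched on both strands, was in 1033 of 32851 promoters over the same length (3.14%). The related letters TGACATCA were not in this window. A match describes the letters and shows no binding.

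Nts measured 233, 92.5, 616 and 365 CPM in KO-labelled mice 2, 3, 6 and 7 and 88.0, 57.4 and 75.0 CPM in WT-labelled mice 4, 5 and 8. The groups did not overlap, and mouse 3 lay closest to mouse 4. In mice 3, 4, 5 and 8 these levels rested on 7, 16, 13 and 5 UMIs. There 3 UMIs are worth 39.7, 16.5, 13.3 and 45.0 CPM, so the gap between mice 3 and 4 is within counting error. The log2 fold change was 2.32 ± 0.42 (edgeR's quasi-likelihood test with Benjamini-Hochberg adjustment, adjusted p = 0.0226), and DESeq2 gave 2.25 (adjusted p = 0.00527). Mouse 1, outside the test, had 0 Nts UMIs in 8 cells, where 3 UMIs are worth 141 CPM. With mouse 1 included, edgeR's adjusted p was 0.0225.

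A part of the signal came from single cells. The cell with the most Nts held 89 of 149 UMIs in mouse 6, 39 of 116 in mouse 7 and 11 of 22 in mouse 2. Without the top cell of each mouse the levels were 122, 61.9, 270 and 245 CPM in KO-labelled and 45.1, 36.0 and 31.9 CPM in WT-labelled mice. Mouse 8 then lay under 45.0 CPM, the value of 3 UMIs in its whole sum. The groups still did not overlap, and the gene passed (edgeR's quasi-likelihood test with Benjamini-Hochberg adjustment, 2.36, adjusted p = 0.00861). The share of cells with an Nts UMI was 16.7, 19.2, 32.3 and 17.8% in KO-labelled and 9.09, 6.67 and 10.7% in WT-labelled mice. Thinned to 1000 UMIs per cell, it was 4.55, 0, 14.0 and 13.0% beside 7.55, 3.64 and 0%, so that at equal depth the groups overlapped.

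The call depended on which cells and mice entered. In sets 1 and 2 alone, Nts measured 284, 116, 692 and 258 CPM beside 103, 60.3 and 35.8 CPM, with the same direction and no overlap, but missed the threshold (edgeR's quasi-likelihood test with Benjamini-Hochberg adjustment, 2.35 ± 0.44, adjusted p = 0.0519). Without mouse 5, 6 or 7 the adjusted p was 0.240, 0.0533 and 0.0517 by the same test, with fold changes of 2.12, 1.86 and 2.31. Without mouse 2, 3, 4 or 8 the gene passed. Nts was at 399 CPM in set 1, 91.1 CPM in set 2, 390 CPM in set 3, 0 in set 4 and 211 CPM in set 5. In set 1 it measured 402, 127, 993 and 374 CPM in KO-labelled and 132, 98.0 and 103 CPM in WT-labelled mice, of which mice 3 and 4 overlapped. In set 2 it measured 0, 104, 247 and 85.3 CPM beside 63.8, 0 and 21.7 CPM. There KO-labelled mouse 2, at 0, lay under WT-labelled mice 4 and 8.

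**Figure D4:**
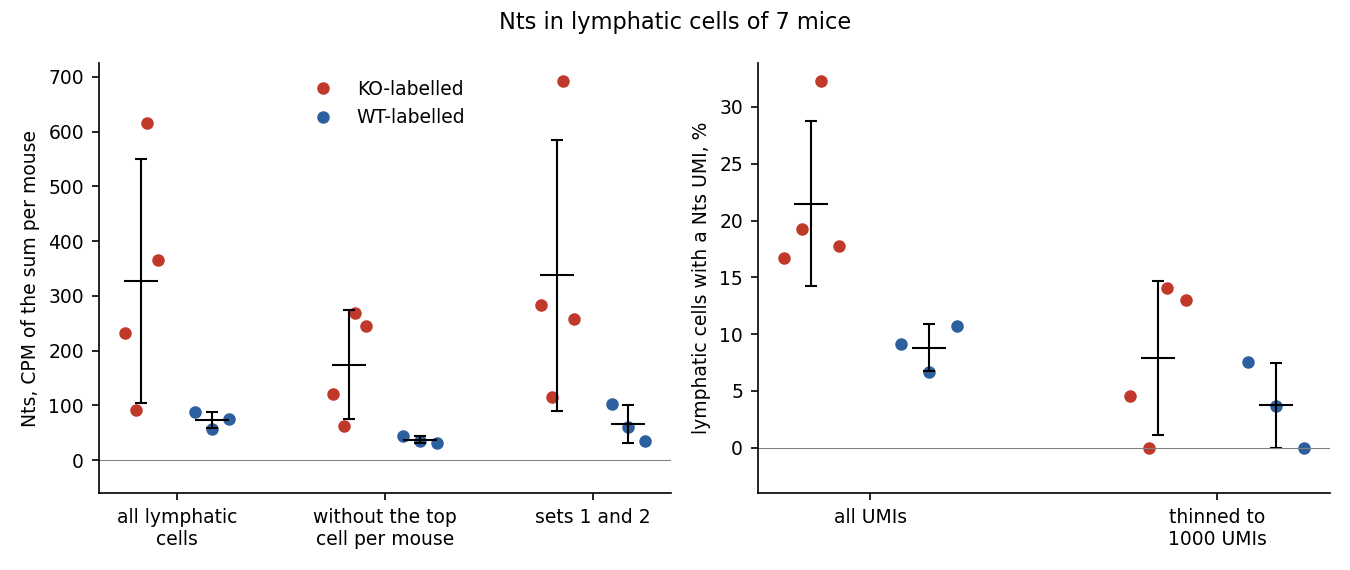
Nts in lymphatic cells of 4 KO-labelled and 3 WT-labelled mice. The left panel gives CPM of the sum per mouse for all lymphatic cells, without the top cell of each mouse and in sets 1 and 2; the right panel gives the percentage of cells with an Nts UMI before and after thinning to 1000 UMIs. Points are mice, lines means and bars the SD; the groups are apart in all but the thinned percentages.

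The 4 genes that passed as lower in KO-labelled mice were Phgr1, Tff3, Mptx1 and Clca1, all transcripts of intestinal epithelium. Phgr1 (chromosome 2, 118772769 to 118778165, plus strand) is an abundant gene of gut epithelium. Tff3 (chromosome 17, 31125306 to 31129646, minus strand) and Clca1 (chromosome 3, 145003817 to 145032776, minus strand) are secreted by goblet cells, and Mptx1 (chromosome 1, 174330518 to 174332873, plus strand) is a pentraxin. Phgr1 measured 42.3, 79.3, 33.1 and 69.3 CPM in KO-labelled and 154, 305 and 240 CPM in WT-labelled mice (−2.08 ± 0.33, edgeR's quasi-likelihood test with Benjamini-Hochberg adjustment, adjusted p = 0.0103). The groups did not overlap, and 49 of the 69 UMIs of mouse 5 were in 1 cell. WT-labelled mouse 1, outside the test, had 0 Phgr1 UMIs in 8 cells, where 3 UMIs are worth 141 CPM. Without mouse 5 or 6 the adjusted p of Phgr1 by the same test was 0.240 and 0.0533. With cells under 20% mitochondrial UMIs alone it was 0.0649. In T cells, which should lack it, Phgr1 measured 170, 109, 17.6 and 20.9 CPM in KO-labelled mice 2, 3, 6 and 7 and 261, 49.3 and 71.2 CPM in mice 4, 5 and 8. The epithelial class held 1739 to 2136 CPM in KO-labelled and 1851 to 4709 CPM in WT-labelled mice 4, 5 and 8.

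The other 3 also had most UMIs of a WT-labelled mouse in 1 cell. Tff3 measured 21.1, 66.1, 8.26 and 6.30 CPM beside 82.5, 1789 and 0 CPM (−5.40 ± 0.99), and 394 of the 405 UMIs of mouse 5 were in 1 cell. Clca1 measured 10.6, 66.1, 20.7 and 0 CPM beside 60.5, 649 and 15 CPM (−4.14 ± 0.84), and 140 of 147 UMIs of mouse 5 were in 1 cell. Mptx1 measured 63.4, 79.3, 20.7 and 3.15 CPM beside 126, 137 and 600 CPM (−3.08 ± 0.62), and 31 of 40 UMIs of mouse 8 were in 1 cell. In T cells Mptx1 measured 113, 188, 9.72 and 8.54 CPM beside 242, 63.9 and 393 CPM. Tff3 measured 87.5, 88.5, 17.8 and 6.64 CPM there beside 143, 60.6 and 11.5 CPM. Clca1 measured 38.9, 72.1, 8.33 and 0.949 CPM there beside 74.2, 45.9 and 23.1 CPM. T cell levels lay above the lymphatic ones in every tested mouse but 5 for Tff3 and all but 5 and 6 for Clca1. For Mptx1 they did so in mice 2, 3, 4 and 7. The adjusted p was 0.0226 for Tff3 and 0.0438 for Clca1 and Mptx1 by edgeR's quasi-likelihood test with Benjamini-Hochberg adjustment, and 0.9997 for each of the 3 by DESeq2. Only Mptx1 of these did not overlap between the groups. Without mouse 2 the adjusted p by edgeR's test was 0.155 for Tff3, 0.217 for Clca1 and 0.120 for Mptx1. Tff3 and Clca1 fell under the filter on low counts without mouse 3, 5, 6 or 7 and with mouse 1 included, and Mptx1 missed the threshold without mouse 6, 7 or 8 (0.132, 0.223 and 0.131).

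The 8 epithelial markers summed to 381, 436, 120 and 457 CPM in KO-labelled mice, with 6 to 8 of them detected, and to 742, 1082 and 555 CPM in WT-labelled mice 4, 5 and 8, with 7 or 8 detected, so that the sums did not overlap. Mouse 1, outside the test, had 468 CPM. Of its 3 tested members, Epcam (−1.51), Krt8 (−0.96) and Lgals4 (−1.11), 3 were lower and 0 passed. In sets 1 and 2, without the set led by epithelial genes, 0 of 2799 genes passed (103 with an unadjusted p under 0.05), and Phgr1 measured 29.9, 66.2, 28.4 and 15.2 CPM beside 89.2, 48.2 and 35.8 CPM, with overlap. The sets were made from these same counts, and Tff3, Clca1 and Phgr1 are among the leading genes of set 3. Leaving that set out lowers them by construction, and 61 cells of sets 3 to 5 are lost. The part of epithelial RNA in these 4 calls was not tested.

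**Figure D5:**
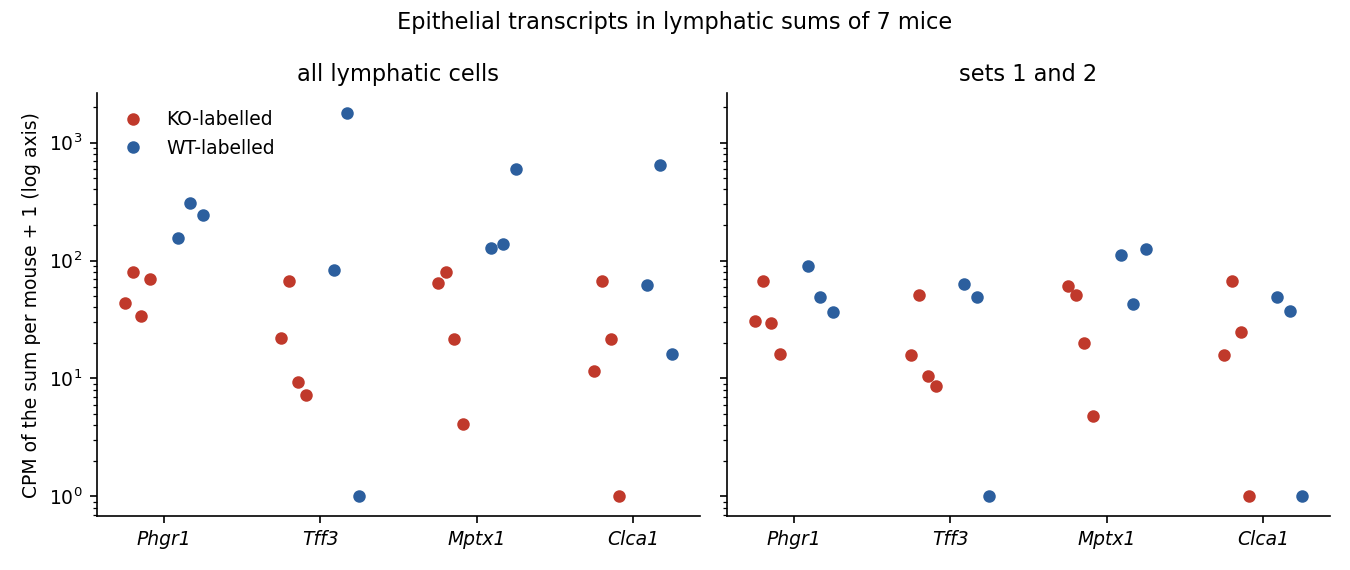
CPM of the sum per mouse plus 1, on a log axis, of Phgr1, Tff3, Mptx1 and Clca1 in lymphatic sums of 4 KO-labelled and 3 WT-labelled mice, in all lymphatic cells (left) and in sets 1 and 2 (right). Tff3 of WT-labelled mouse 5 stands at 1789 CPM on the left and at 48.2 CPM on the right. The right panel leaves out set 3, of which Tff3 is a leading gene.

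A test of the interaction asked whether the difference between the groups was itself different in lymphatic and blood endothelium, in KO-labelled mice 3, 6 and 7 and WT-labelled mice 4, 5 and 8, with the mouse as a block. Of 3635 genes 1 passed (0.0275%), and 136 had an unadjusted p under 0.05 (3.74%). The gene was Igha, the constant region of the IgA heavy chain, a product of plasma cells. In lymphatic sums it measured 92.5, 202 and 110 CPM in KO-labelled and 104, 389 and 105 CPM in WT-labelled mice, with overlap. In blood endothelium it measured 130, 4523 and 3644 CPM beside 240, 385 and 70.6 CPM, so that the high values were those of mice 6 and 7 in the other class (−4.11 ± 0.65, edgeR's quasi-likelihood test with Benjamini-Hochberg adjustment, adjusted p = 0.0277). Jchain, another plasma cell gene, stood at 16625 and 4770 CPM in the blood endothelium of the same mice and at 74.4 and 40.9 CPM in their lymphatic cells. The part of plasma cell RNA in the blood endothelial sums was not tested. For Nts the interaction was −1.42 ± 1.52, with blood endothelium at 0 CPM in 4 of the 6 mice, and 0 lymphatic identity genes passed.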

How the data were processed

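The authors deposited a matrix of counts (UMIs, not normalized) of 31053 genes by 53080 cells, made with Cell Ranger 3.0.2 on mm10 per the submitters' processing notes. The authors' table gives each cell a mouse, a class, a cluster, a size factor (a ratio of its total to the geometric mean) and UMAP coordinates (a score), of which the size factor served to check the order of cells: after sorting by mouse and barcode, 53080 of 53080 matched the totals (tolerance 1e-06). The sources used here name neither the clustering nor the doublet method. Other deposited columns hold labels.

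Members and gene lists were chosen with earlier results of these data known. Of 282 genes in 26 lists, 1 (Cemip2) was not matched. Counts were summed per mouse (20 or more cells) and tested with edgeR 4.0.16 (quasi-likelihood F test after TMM scaling and filterByExpr) under R 4.3.3, at a threshold of 0.05, with DESeq2 1.42.0 beside it. The named genes are the 10 with the smallest p in each direction, the 20 highest and 10 lowest ratios, the 10 most like Prox1, and list members. On simulated counts of 3171 genes, edgeR recovered 52.8% of 2-fold and 98.7% of 4-fold changes, with 5 false calls. Only genes past the filter on low counts were included, with spread taken from the trend over genes. Genes with most UMIs in 1 cell, such as Tff3, were therefore not imitated. Sets were made with scanpy 1.11.5 and igraph 0.11.9 (2000 variable genes, 20 components, 15 neighbours, Leiden resolution 0.5). Shares were compared by exact permutation over mice. Other steps ran in Python 3.11.15 with pandas 2.3.3, scipy 1.17.1, matplotlib 3.10.9 and numpy 2.4.6. Alternatives were size factors, filters, left-out mice, mitochondrial limits, and, chosen after seeing the data, mouse 1 included, sets 1 and 2 alone, and the top Nts cell left out.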

Additional observations from a re-analysis of the deposited data

Results flagged for a closer look

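Among 34 groups of 4 mice examined, 2 held a mouse far from the others of its group, and chance gives about 1 in 20 groups. Spink4, a goblet cell gene, was at 145 CPM in the lymphatic sum of KO-labelled mouse 3 and at 3.15 to 12.4 CPM in the other KO-labelled mice. Ccl21a was at 17278 CPM in KO-labelled mouse 2 and at 23202 to 24293 CPM in the other KO-labelled mice. The change of Igha between the groups differed between the classes by −4.11 on the log2 scale, lymphatic minus blood endothelial, by edgeR's interaction test. The high values were those of blood endothelium in mice 6 and 7.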

How the results depend on the processing

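No paired analysis was possible because KO-labelled and WT-labelled mice share no replicate number. Of genes between the groups, 5 passed; the count was 22 with no filter on low counts, 2 with DESeq2, 3 with mouse 1 included, 0 in sets 1 and 2, and 0 to 8 with 1 mouse left out (2, 1, 0, 1 and 8 without mouse 2, 5, 6, 7 and 8). In the interaction, which keeps the mouse as a replicate block, 1 gene passed; without the block 0 passed (120 at an unadjusted p under 0.05), 8 with no filter, 0 with mice of 10 or more cells, 3 under 20% mitochondrial UMIs, 3 in sets 1 and 2, and 0 to 3 with 1 mouse left out (0 without mouse 5 or 6). With 1 mouse left out, differences in share ranged from −0.0414 to 0.502 (all cells), −2.53 to 0.546 (stromal) and 2.77 to 9.98 percentage points (endothelial). Median UMIs differed by −267 to 246 (48.4, 246 and 91.7 without mouse 3, 5 and 7) and mitochondrial percentages by −0.214 to 0.347 (−0.0804, −0.110 and −0.214 without mouse 2, 3 and 8). With 1 mouse left out, log2 fold changes crossed 0 for Prox1 (−0.032 to 0.17), Lyve1 (−0.025 to 0.25), Mmrn1 (−0.15 to 0.10), Flt4 (−0.025 to 0.17), Reln (−0.20 to 0.035) and Fos (−0.020 to 0.34). The sign also turned for Flt4 (−0.022) and Gsn (−0.45) with mouse 1 and for Mmrn1 (0.022) in sets 1 and 2. None of these genes passed in the main test. The cause was not tested. Of 48 recomputed ratios to blood endothelium for 12 genes, 12 moved by over 1 SD, 9 of them with a pseudocount of 1, and 0 changed sign. With 24 to 107 cells per tested mouse, genes at a few UMIs were limited by depth.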
